A study of Homo sapiens with 4 samples.

Results

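The AP-1 transcription factors described here are 9 genes: JUN, JUNB, JUND, FOS, FOSB, FOSL1, FOSL2, ATF3 and BATF3. They were chosen by name, with earlier results of these data known. Every probe set whose single gene symbol in the array annotation is one of these names was taken. This gave 21 of the 54675 probe sets on the array and 9 of the 19775 genes named by them. A probe set is a group of short oligonucleotides that together report 1 transcript. The study measured total RNA from a pair of human lines of T cell lymphoma of the skin on 4 arrays. MyLa is a line of mycosis fungoides, and HH is labelled only as a cutaneous T cell lymphoma line. The 4 groups, each of 1 array, were MyLa control, MyLa with 5 ng/ml of the cytokine isoform IL-32γ, HH control and HH with 5 ng/ml of IL-32γ, and all were kept for 40 hours in 0.1% serum. A line grown in culture lacks the surrounding skin, and each comes from a single tumour, so a difference between them is a difference between those lines only.

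AP-1 is not a single protein but a family of dimers. JUN proteins pair with each other or with FOS, ATF or BATF proteins through a leucine zipper, and the dimer binds DNA through the basic region beside it. In T cells, AP-1 works downstream of the T cell receptor and the MAP kinases and acts together with NFAT on cytokine genes. FOS and FOSB are known as short-lived immediate early genes, and JUNB and BATF3 are known for high levels in CD30-positive lymphomas.

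AP-1 dimers recognise the element TGACTCA or TGAGTCA, called TRE, and the related element TGACGTCA, called CRE. The TRE was searched as TGANTCA, with any base at N, which is a wider set of letters. The promoter windows of these genes were read for both elements, for the variant TGACATCA and for the 5-base core TGACG on both strands, because members of the family are known to bind each other's promoters. The sequences are RefSeq promoters of GRCh38.p14, running from 250 bases before to 50 bases after the gene start, and 7 of the 9 genes had 1 or more entries (ATF3 had 2). JUN and ATF3, which were higher in MyLa than in HH, both held TGACATCA upstream of their start. It lay 67 to 60 bases before the start of JUN (window chr1:58784081-58784140, minus strand) and 123 to 116 bases before 1 of the ATF3 starts (window chr1:212565258-212565317, plus strand). JUND, which did not pass the test between the lines, held a full TGACGTCA (window chr19:18281789-18281848, minus strand), and FOSL2, which was higher in HH, held a TRE just after its start (window chr2:28392851-28392880, plus strand). The capitals mark the element.
JUN: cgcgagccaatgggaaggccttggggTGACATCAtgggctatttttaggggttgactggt
ATF3: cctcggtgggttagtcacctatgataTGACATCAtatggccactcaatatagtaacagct
JUND: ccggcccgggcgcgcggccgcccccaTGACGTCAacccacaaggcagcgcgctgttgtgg
FOSL2: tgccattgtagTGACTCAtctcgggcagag

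Of all 35116 promoter windows of the same length, 2.61% held TGACATCA, 1.85% TGACGTCA and 7.71% TGANTCA on either strand. The core TGACG, which overlaps the full CRE, was in the windows of 6 member genes (JUN, JUNB, JUND, FOS, FOSB and FOSL2) and in 24.6% of all windows. The second ATF3 window held none of these letters. These matches describe letters, and the arrays did not measure binding at them. Any link between these elements and the differences between the lines was not tested.

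Values are deposited log2 expression values, so a difference of 1 is 2-fold. The arrays were alike in range, with 23433 to 23686 probe sets at 5 or more, the level taken as measured. Below 5 on all 4 arrays lay 52.0% of all probe sets and 47.9% of those with a single symbol. T cell markers fitted the labels in part: 8 of 10 marker genes with a probe set were measured on some array, but CD3E, CD4 and CD5 were below 5 in MyLa and CD8A in HH. LCK and CD7 were below 5 everywhere. B cell and NK cell markers were below 5 on every array. Of 4 keratinocyte markers only KRT10 was measured, and KRT1, KRT5 and KRT14 were below 5 throughout. The summed keratinocyte level was 12.47 to 12.58 over the 4 arrays. Of 4 myeloid markers only ITGAM was measured, at 9.00 and 8.73 in MyLa and 2.13 in HH, and CD14, CSF1R and LYZ were below 5 throughout; the summed myeloid level was 8.80 to 9.06 in MyLa and 4.72 in HH. Fibroblast markers moved with the line: COL1A1 and COL3A1 were measured in MyLa, COL1A2, DCN and PDGFRB on no array, and the summed level of the 5 genes was 14.47 to 14.55 (log2) in MyLa and 6.95 to 7.19 in HH. The part of the myeloid and fibroblast markers in the differences between lines was not tested. The control probe set for the 5' end of ACTB differed both between the lines and with IL-32γ: it read 10.12 and 11.81 in MyLa (control and IL-32γ) and 12.69 and 13.58 in HH, while the 3' end read between 15.07 and 15.27 on all arrays. The part of this in the line differences and in the IL-32γ differences was not tested either.

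The plot of member levels shows which AP-1 genes these lines carried. Transcripts of JUN, JUNB, JUND, FOSL2, ATF3 and BATF3 were measured, while FOS, FOSB and FOSL1 were not. In all, 10 of the 21 member probe sets (47.6%) were below 5 on every array, beside the 47.9% of all probe sets with a single symbol. Another 10, of 6 genes, were at 5 or more on at least 2 arrays and could be tested. The last, a JUND probe set, passed 5 only on the MyLa IL-32γ array.

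**Figure D1:**
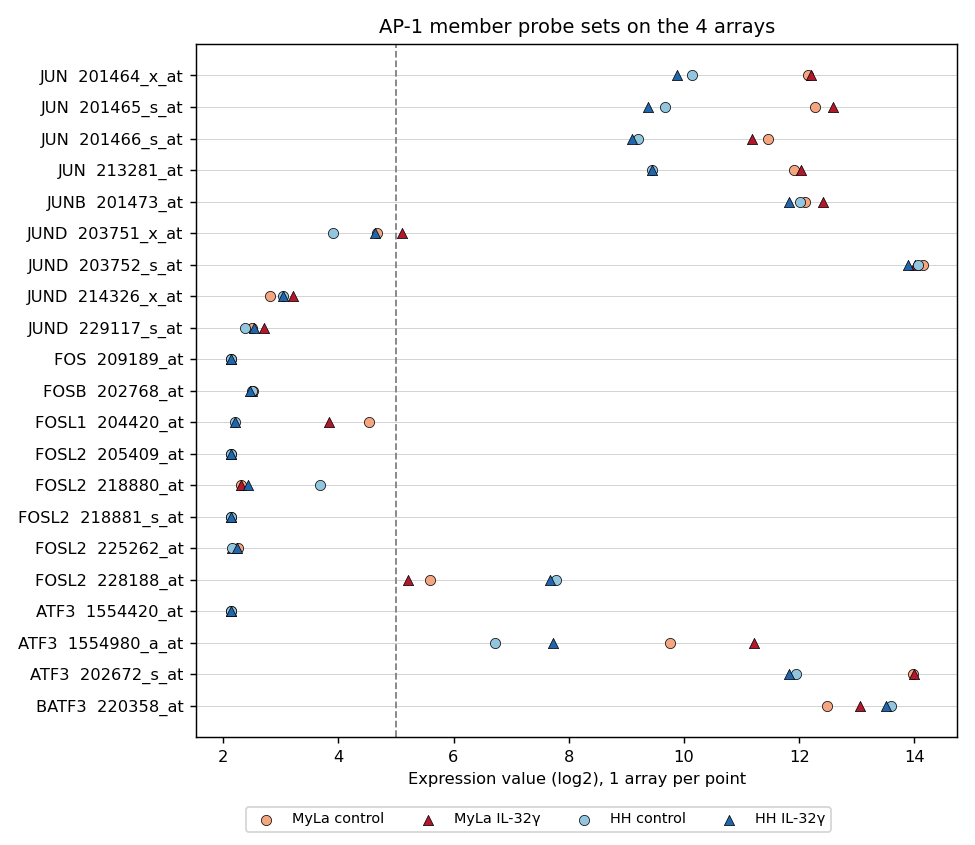
Log2 expression value (x axis) of each of the 21 AP-1 probe sets (rows) on the 4 arrays; circles are control and triangles IL-32γ, red shades MyLa and blue shades HH, and the dashed line is the level of 5 taken as measured. The 4 JUN rows and both measured ATF3 rows have MyLa to the right of HH, FOSL2 228188_at has HH to the right, and FOS, FOSB and FOSL1 lie left of the line.

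FOS, the classical partner of JUN, read 2.13 on all 4 arrays, which to the digits printed is the lowest value any probe set takes. FOSB, its close relative, read 2.52 and 2.51 in MyLa and 2.51 and 2.47 in HH. FOSL1, a FOS-related gene often raised in epithelial tumours, read 4.53 without and 3.84 with IL-32γ in MyLa, and 2.20 on both HH arrays. It was thus nearest to 5 in MyLa without IL-32γ, yet under it everywhere. Each of these 3 genes had 1 probe set, so a value under 5 says that this probe set gave no measured signal, and no fold change was taken from it.

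JUN, the founding member and the strongest transcriptional activator of the JUN proteins, was higher in MyLa by each of its 4 probe sets. Probe set 213281_at read 11.91 in MyLa without the cytokine and 12.04 with it, and 9.44 in HH under either condition. Both MyLa arrays lay above both HH arrays, with no overlap and with little movement inside either line. The difference was 2.53 (SE 0.11, n = 2 arrays per line), or 5.79-fold, with an adjusted p of 0.000663 in limma (Benjamini-Hochberg over 25306 probe sets). In this test the control and IL-32γ arrays of a line stand as its 2 values, so the spread holds the response as well as noise.

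The other JUN probe sets gave the same direction. Probe set 201465_s_at read 12.28 (control) and 12.58 (IL-32γ) in MyLa and 9.66 and 9.38 in HH, a difference of 2.91 (SE 0.18, limma adjusted p = 0.00151). Probe set 201464_x_at read 12.16 and 12.20 against 10.14 and 9.88, and 201466_s_at read 11.45 and 11.18 against 9.21 and 9.10. Their differences of 2.17 (SE 0.14, limma adjusted p = 0.0016) and 2.16 (SE 0.15, limma adjusted p = 0.00181) were smaller than that of 201465_s_at, and the 95% intervals of these 3 overlapped (1.77 to 2.57, 1.74 to 2.58 and 2.38 to 3.43). The 4 probe sets report 1 gene on the same RNA and are not separate evidence.

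ATF3, a stress-induced factor that forms dimers with JUN and can repress transcription, was also higher in MyLa. Probe set 202672_s_at read 13.97 without and 14.00 with IL-32γ in MyLa, and 11.95 and 11.82 in HH. The lines were apart by at least 2.02, against movements of 0.02 and -0.14 inside them. The difference was 2.10 (SE 0.11, n = 2 arrays per line), or 4.29-fold, with a limma adjusted p of 0.00107. Probe set 1554980_a_at read 9.75 and 11.22 in MyLa and 6.72 and 7.72 in HH, a difference of 3.27 (SE 0.66, limma adjusted p = 0.024). This call was less firm than the other: the adjusted p was 0.0565 without the MyLa IL-32γ array, 0.105 without the HH control array and 0.0693 without the HH IL-32γ array. The remaining ATF3 probe set, 1554420_at, read at most 2.14 on any array.

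FOSL2, which encodes FRA-2, a FOS-family protein known from adult T cell leukaemia and cutaneous lymphoma, went the other way. Its single measured probe set, 228188_at, read 5.59 (control) and 5.21 (IL-32γ) in MyLa and 7.78 and 7.67 in HH. Both HH arrays lay above both MyLa arrays, which were little above 5. The difference of MyLa minus HH was -2.32 (SE 0.18, n = 2 arrays per line), so HH was higher by 5.01-fold, with a limma adjusted p of 0.00238. The other 4 FOSL2 probe sets were below 5 on every array, the highest value being 3.68 on the HH control array, so the gene rests on 1 probe set.

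BATF3, a small partner of JUN proteins that lacks a transactivation domain, read 12.48 without and 13.05 with IL-32γ in MyLa, and 13.60 and 13.51 in HH. The HH arrays were higher with no overlap, but the difference of -0.79 (SE 0.24, n = 2 arrays per line) missed both the threshold (limma adjusted p = 0.0604, 95% interval -1.47 to -0.12) and the 2-fold minimum (1.73-fold). Without the MyLa IL-32γ array it was -1.08 with a limma adjusted p of 0.0243 and passed both. The limma adjusted p was 0.0382 with an intensity trend, 0.0496 with median-centred arrays and 0.0465 with the mean of probe sets per gene, each still under 2-fold. On the control arrays alone BATF3 was lower in MyLa by -1.12, and on the IL-32γ arrays by -0.46. In the RefSeq table BATF3 lies beside ATF3 with 3 genes between them, of which 1, GARIN4, is protein-coding. The neighbours thus read in opposite directions between the lines, and only ATF3 passed the test.

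JUNB, a JUN protein that activates less strongly and is abundant in CD30-positive lymphoma, read 12.10 and 12.42 in MyLa and 12.01 and 11.82 in HH. The lowest MyLa value was 0.09 above the highest HH value, and the difference of 0.35 (SE 0.17) did not pass (limma adjusted p = 0.169, 95% interval -0.14 to 0.84). JUND, the most constant of the JUN genes in resting cells, read 14.15 and 14.01 in MyLa and 14.07 and 13.89 in HH by 203752_s_at. The lines overlapped, and the difference was 0.10 (SE 0.13, limma adjusted p = 0.564, 95% interval -0.28 to 0.48). Both intervals exclude a difference of the size seen for JUN. The 3 other JUND probe sets read between 2.38 and 5.10 and were not tested between the lines.

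Counted together, 7 of the 10 tested member probe sets passed an adjusted p of 0.05 with 2-fold or more between the lines, 6 higher in MyLa (4 of JUN and 2 of ATF3) and 1 higher in HH. Among all 25306 tested probe sets 35.0% passed, 18.2% higher in MyLa and 16.8% higher in HH. By gene, 3 of 6 passed, and the genes were chosen with earlier results of these data known. The member median of 2.13 stood beside -0.01 for all tested probe sets, and JUN alone gives 4 of the 10 values. The arrays of the lines did not overlap for 9 of the 10, against 80.2% of all tested probe sets. On the control arrays alone, 8 of the 10 stood apart by 1.5-fold or more, 6 higher in MyLa and 2 (FOSL2 and BATF3) lower, beside 57.3% of all 25763 probe sets measured there, 28.8% higher and 28.5% lower.

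**Figure D2:**
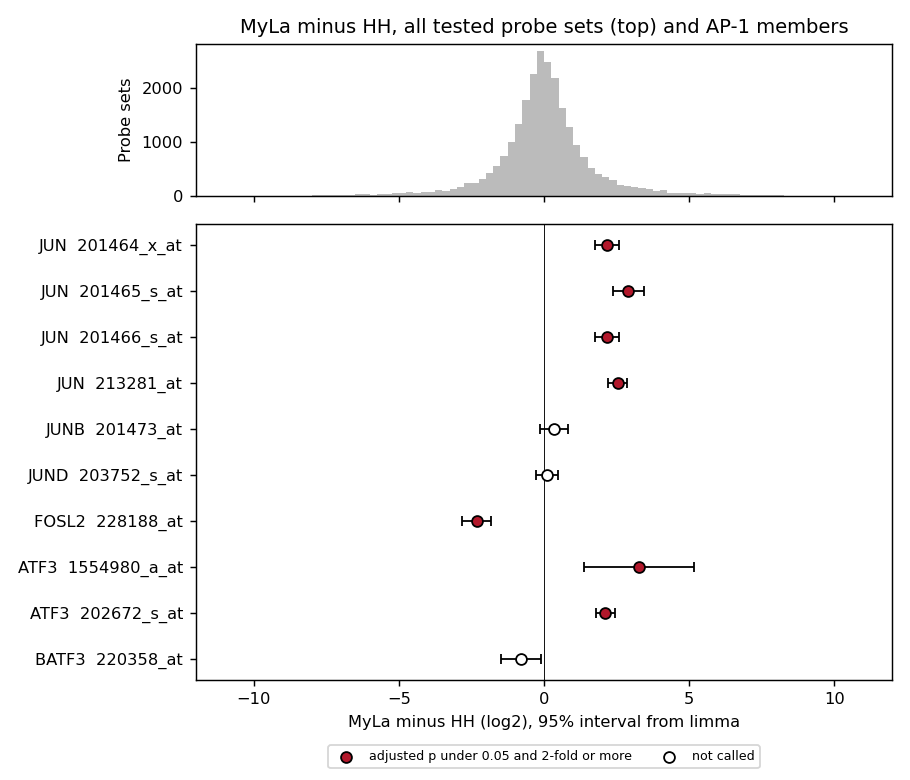
MyLa minus HH (log2, x axis): the top panel counts all 25306 tested probe sets, and the bottom panel gives each tested AP-1 probe set with its 95% interval from limma (n = 2 arrays per line), filled where adjusted p was under 0.05 with 2-fold or more. JUN and ATF3 sit between 2.10 and 3.27, FOSL2 at -2.32, and JUNB, JUND and BATF3 are open points.

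The response to IL-32γ within each line has no replicate and therefore no test. In MyLa 1 of 11 measured member probe sets was higher by 1.5-fold or more and none lower, beside 20.1% of all 24232 measured probe sets in either direction (11.0% higher and 9.13% lower). In HH 1 of 10 was higher and none lower, beside 9.46% of 23855 in either direction (5.45% higher and 4.02% lower). In both lines it was the same probe set, ATF3 1554980_a_at. The member medians were 0.10 in MyLa and -0.13 in HH, beside -0.05 and -0.03 for all probe sets.

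ATF3 1554980_a_at read 9.75 without and 11.22 with IL-32γ in MyLa, 2.77-fold higher, and 6.72 and 7.72 in HH, 2.01-fold higher. The brighter ATF3 probe set, 202672_s_at, differed by only 0.02 and -0.14 on the same arrays. The probe sets of this gene therefore disagreed on the response in both lines. Among all probe sets measured in both lines, 2.14% were higher by 1.5-fold or more in both and 1.0% lower in both. With the lines as replicates and the line as a block, the difference of 1554980_a_at was 1.24 (SE 0.18, higher in both lines), and its adjusted p was 0.483 in limma. The 5' ACTB control probe set was higher on the same IL-32γ arrays, by 1.69 and 0.89, the middle ACTB control by 0.72 and 0.31, and the 3' ACTB control by -0.075 and -0.03. The part of this in the ATF3 reading was not tested. The plot of ATF3 beside these controls shows the pairs of values.

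**Figure D3:**
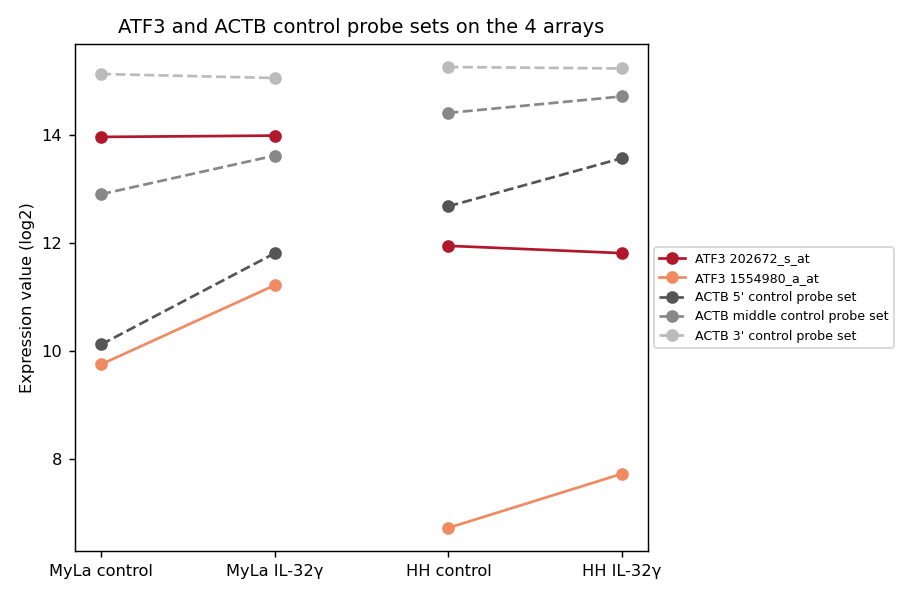
Log2 expression value (y axis) of both measured ATF3 probe sets (solid red and orange) and of the ACTB control probe sets at the 5' end, middle and 3' end (dashed greys) on the 4 arrays; each segment joins the control and IL-32γ array of 1 line. ATF3 1554980_a_at and 5' ACTB are both higher on the IL-32γ arrays, while ATF3 202672_s_at and 3' ACTB are level within 0.14.

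The other members differed by less than 1.5-fold. BATF3 came nearest, at 0.57 (1.49-fold) in MyLa and -0.09 in HH. JUNB differed by 0.32 in MyLa and -0.19 in HH. FOSL2 was lower in both lines, by -0.38 and -0.12, and so was JUND by 203752_s_at, by -0.14 and -0.18. The dim JUND probe set 203751_x_at went the other way in MyLa, by 0.10 with values below 5 set to 5 and by 0.43 as deposited. The 4 JUN probe sets ran from -0.27 to 0.30 in MyLa and from -0.28 to 0.01 in HH, so they gave no common direction. FOS, FOSB and FOSL1 stayed below 5 with IL-32γ as without it.

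With the lines as replicates, 0 of the 10 member probe sets and 0 of all 25306 passed an adjusted p of 0.05 in limma, a fit with 1 residual degree of freedom. Before adjustment 1 member probe set, the ATF3 one above, had p under 0.05, beside 10.2% of all. For JUN 213281_at the difference was 0.07 with a 95% interval of -0.32 to 0.45, and for BATF3 0.24 with one of -0.42 to 0.91. These intervals leave room for changes past 1.5-fold for BATF3, but not for 213281_at. Other JUN probe sets did leave such room: the interval was -0.60 to 0.62 for 201465_s_at and -0.59 to 0.21 for 201466_s_at. A JUN response past 1.5-fold is therefore not excluded.

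**Figure D4:**
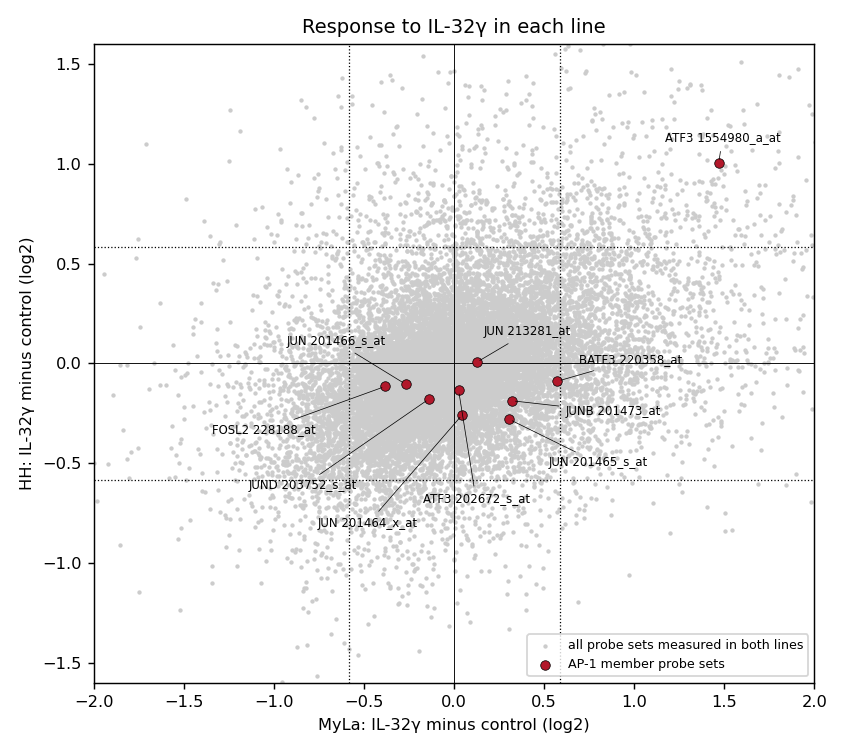
IL-32γ minus control (log2) in MyLa (x axis) and HH (y axis), 1 array per condition; grey points are the probe sets measured in both lines (126 of 21820 lie beyond the axes) and red points the 10 AP-1 probe sets, with dotted lines at 1.5-fold. ATF3 1554980_a_at lies past 1.5-fold in both lines and the other 9 inside it.

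The genes whose pattern over the 4 arrays was nearest to a member were taken by distance between mean-centred values, among 20731 probe sets. Nearest to JUN 201464_x_at were SEMA4D (distance 0.04), TPM1 (0.05) and RBKS (0.07). Nearest to ATF3 202672_s_at were C2orf81 (0.05), GFPT1 (0.07) and RBKS (0.07). Nearest to FOSL2 were SQLE (0.03), DCAF13 (0.03) and HNRNPDL (0.05). Nearest to BATF3 were ELAVL1 (0.01), MAPK3 (0.03) and MSRB1 (0.03). With only 4 arrays, unrelated genes can come this close, and how many did was not counted. JUNB and JUND varied by less than 1 and were not searched.

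For the gene lists around AP-1, each gene is given by the probe set with the largest line difference unless another is named. Other bZIP genes encode possible dimer partners or relatives. Of 41 tested probe sets (16 genes), 19 passed between the lines as higher in MyLa, from 7 genes, and 0 as higher in HH, with a median of 0.78, beside 18.2% and 16.8% of all tested probe sets. Several of the 7 genes count more than once. The 7 were CREM, MAF, BACH2, ATF5, NFIL3, NFE2L1 and DDIT3. CREM, a cAMP-responsive factor of T cells, read 11.77 and 11.58 in MyLa and 6.56 and 6.12 in HH, a difference of 5.34 (SE 0.20, limma adjusted p = 0.000483), and its other tested probe sets gave 2.24 to 4.90. MAF, a Th2 cytokine regulator, read 10.15 and 10.08 against 2.13 on both HH arrays, a difference of at least 5.11, and BACH2, a repressor that competes with AP-1, read 9.52 and 9.71 against 2.13. The stress factor ATF5 differed by 4.61 (SE 0.41, limma adjusted p = 0.00342) and NFIL3 by 3.75 (SE 0.11, limma adjusted p = 0.000285). With IL-32γ, MyLa had 9 of 41 bZIP probe sets higher by at least 1.5-fold and 0 lower, and HH had 1 of 35 higher and 0 lower, beside 11.0% and 9.13% of all measured probe sets in MyLa and 5.45% and 4.02% in HH. ATF5 gave 3 of the 9. The others were of NFE2L2, MAF, BACH2, ATF7, MAFG and BATF. By the probe set with the highest MyLa mean, the difference was -0.12 for NFE2L2, -0.06 for MAF, 0.18 for BACH2 and 0.08 for ATF7. It was 0.08 for ATF5 and 0.40 for MAFG, so for these genes the probe sets disagreed on passing 1.5-fold. The 5' ACTB control was also higher with IL-32γ in MyLa, by 1.69, and the part of this in the bZIP count was not tested. BATF, the close relative of BATF3, read 9.93 without and 11.11 with IL-32γ in MyLa and 10.56 and 10.54 in HH (named after its values were seen).

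**Figure D5:**
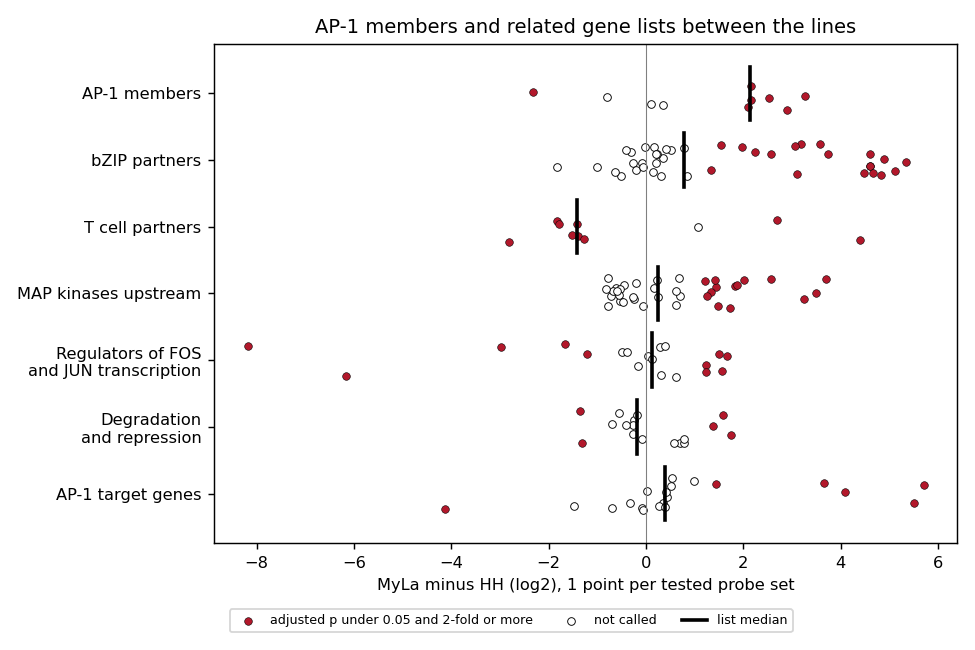
MyLa minus HH (log2, x axis) for every tested probe set of the AP-1 members and of 6 related gene lists (rows); filled points passed adjusted p under 0.05 with 2-fold or more in limma, and the black bar is the list median. bZIP partners and MAP kinases have filled points on the MyLa side only, and the T cell partners have 7 of 9 on the HH side.

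The list of MAP kinases upstream of AP-1 also holds the kinases that act on them. It had 14 of 37 tested probe sets higher in MyLa, from 8 of 17 genes, and 0 higher in HH. The median was 0.25, and the shares of all tested probe sets were 18.2% and 16.8%. The p38 kinase MAPK13 read 8.92 and 8.49 in MyLa and 2.13 on both HH arrays. MAP3K5, a stress-activated kinase of the JNK and p38 arms, differed by 3.50 (SE 0.27, limma adjusted p = 0.00241), MAP2K5 by 2.01 (SE 0.11, limma adjusted p = 0.00112), the JNK kinase MAP2K4 by 1.73 (SE 0.17, limma adjusted p = 0.00422) and MAP2K6 by 1.49 (SE 0.16, limma adjusted p = 0.00552). With IL-32γ the kinase list had 2 of 38 higher and 2 lower in MyLa, and 1 of 35 higher and 2 lower in HH, beside the same shares of all measured probe sets (11.0% and 9.13%, 5.45% and 4.02%).

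Among regulators of FOS and JUN transcription, 5 of 19 tested probe sets were higher in MyLa and 5 higher in HH, with a median of 0.12, beside 18.2% and 16.8% of all. MEF2C, a factor of immune and muscle cells, read 5.16 and 5.82 in MyLa and 13.71 and 13.64 in HH, a difference of -8.18 (SE 0.26, limma adjusted p = 0.000335). Its other probe sets gave smaller differences of -6.16 and -2.99. MRTFA (-1.66, SE 0.23) and ELK3 (-1.21, SE 0.19) were also higher in HH, and MEF2A (1.67, SE 0.21) and ELK4 (1.24, SE 0.16) in MyLa. Their limma adjusted p lay between 0.00804 and 0.0127. The ELK4 probe sets disagreed: the brightest gave 0.30 and another -0.38, neither called. Genes of JUN degradation and AP-1 repression had 3 of 17 higher in MyLa and 2 higher in HH, with a median of -0.18, and 18.2% and 16.8% of all probe sets did the same. The ubiquitin ligase component FBXW7, which targets JUN, differed by 1.76 (SE 0.19, limma adjusted p = 0.00528) and SIRT1 by 1.59 (SE 0.11, limma adjusted p = 0.00174). The probe sets of ITCH and GSK3B disagreed in sign, with -1.35 and -1.30 by the ones that passed. COP1 stood at -0.54 and did not reach 2-fold.

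Among the T cell partners of AP-1, IRF4 and NFATC3 were higher in HH, NFATC2 was higher in MyLa and NFATC1 was not called. Of 10 tested probe sets, 2 were higher in MyLa and 7 higher in HH, with a median of -1.41, beside 18.2% and 16.8% of all, and 5 of the 7 belong to NFATC3. IRF4, which binds DNA with BATF proteins, was measured in both lines and higher in HH: its bright probe set 204562_at read 11.42 and 11.61 in MyLa and 13.32 and 13.37 in HH, a difference of -1.83, and the dimmer 216986_s_at gave -2.81. NFATC3 differed by -1.78 (SE 0.12, limma adjusted p = 0.00185) and NFATC2 by 4.40 (SE 0.15, limma adjusted p = 0.000351). NFATC1, by 1 of its 5 probe sets, read 7.09 without and 5.07 with IL-32γ in MyLa and at most 2.15 in HH, and its difference did not pass (limma adjusted p = 0.296). The other 4 were below 5 on every array.

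Known AP-1 target genes were below 5 on every array for 21 of 42 probe sets. Of the 20 tested, 5 (4 genes) were higher in MyLa, 1 was higher in HH and the other 14 were not called, with a median of 0.40, beside the 18.2% and 16.8% of all tested probe sets. CDKN1A, a cell cycle inhibitor, read 14.25 and 14.27 in MyLa and 8.77 and 8.33 in HH, a difference of 5.71 (SE 0.19, limma adjusted p = 0.000353). SPP1, encoding osteopontin, read 10.42 and 10.59 against 2.13 on both HH arrays, and the chemokine gene CXCL8 read 9.13 and 9.06 against 2.41 and 2.13 by 1 probe set and was below 5 everywhere by the other. TNFRSF8, encoding CD30, whose promoter JUNB is known to bind, was higher in HH: it read 9.65 and 9.93 in MyLa and 14.02 and 13.82 in HH, a difference of -4.13 (SE 0.16, limma adjusted p = 0.000501). JUNB itself was not called between the lines, and BATF3 missed the threshold on the HH side. TGFB1 read 5.94 without and 8.40 with IL-32γ in MyLa and 8.78 and 8.49 in HH, so that MyLa minus HH was -2.84 on the control arrays and -0.09 on the IL-32γ arrays, and the difference over both did not pass (limma adjusted p = 0.253). The 5' ACTB control was also lowest on the MyLa control array, at 10.12, and the part of this in the TGFB1 reading was not tested. With IL-32γ, 3 of 21 target probe sets in MyLa and 2 of 17 in HH were higher by 1.5-fold or more, and none lower, beside 11.0% and 5.45% of all measured probe sets. The same pair of CD44 probe sets (210916_s_at and 234418_x_at) made up the 2 in HH and, with TGFB1, the 3 in MyLa. Of the pair, 234418_x_at was dim, at 5.09 in MyLa and 5.34 in HH without IL-32γ. All other tested CD44 probe sets stayed under 1.5-fold in both lines. The brightest, 212063_at, differed by -0.03 in MyLa and -0.01 in HH, so the probe sets of CD44 disagreed on the response.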

How the data were processed

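The authors deposited 1 log2 value for each probe set and array, made with GCRMA (background correction from probe sequence, then normalisation and a summary over probes), per the submitters' processing notes. Its version, and joint or separate normalisation of the 4 arrays, are not given in the sources used. The log2 scale was inferred from the range of 2.13 to 16.00. Symbols came from the array annotation, updated by Entrez identifier with RefSeq names of GRCh38.p14 (41043 of 41097 probe sets with 1 symbol matched).

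Values below 5 were set to 5, so a difference against such a value is a bound. A difference within a line was taken for probe sets at 5 or more on at least 1 of its arrays and counted at 1.5-fold, with no test. Probe sets at 5 or more on at least 2 arrays were tested in limma 3.58.1 (R 4.3.3), two-sided, with Benjamini-Hochberg adjustment over all 25306. IL-32γ across lines had the line as a block (1 residual degree of freedom). MyLa against HH had no block, the 2 arrays of a line as its values and a 2-fold minimum (2 residual degrees of freedom). Nothing in the labels makes the arrays separate cultures, so p-values measure only the spread between these arrays, whose number limits the precision. The fits were tested on simulated data, where false calls across lines ran above the aimed share and most 2-fold changes between lines were missed. Those changes lay exactly at the 2-fold minimum, which by itself fails many of them, so the share missed does not measure the fit alone.

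All members were named, with up to 5 genes per list by largest line difference and the 3 genes nearest in pattern to each member that varied by 1 or more. The members and lists were chosen with earlier results of these data known. Alternatives were other floors, quantile or median-centred values, 1 value per gene, no probe sets ending in _x_at or _s_at, an intensity trend, a different block, other fold thresholds and each array left out. Python 3.11.15, pandas 2.3.3, numpy 2.4.6 and matplotlib 3.10.9 handled tables and plots.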

Additional observations from a re-analysis of the deposited data

Results flagged for a closer look

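The response to IL-32γ had opposite signs in the lines for 5 of the 10 member probe sets measured in both, beside 35.0% of all probe sets measured in both. With 1 array per condition the difference between the lines was not tested. MyLa minus HH, it was 0.66 for BATF3 (0.57 in MyLa, -0.09 in HH), 0.58 for JUN 201465_s_at (0.30 and -0.28), 0.51 for JUNB (0.32 and -0.19), 0.30 for JUN 201464_x_at (0.05 and -0.26) and 0.16 for ATF3 202672_s_at (0.02 and -0.14).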

How the results depend on the processing

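Between the lines 6 to 7 member probe sets were called when each array was left out in turn, against 7, and 3 genes (or probe sets) when each gene had 1 value or when probe sets ending in _x_at or _s_at were left out. ATF3 1554980_a_at also lost its call with no floor (limma adjusted p = 0.170). On the control arrays alone 8 member probe sets passed 1.5-fold, and 4 under those same 3 settings. With IL-32γ in MyLa, 1 member probe set passed 1.5-fold, against 2 with no floor, 0 with the brightest probe set per gene and 3 at 1.3-fold. In HH it was 1, against 2 with a floor of 4, 3 with no floor and 0 with 1 value per gene by either rule. Over all features, the count for MyLa of 4871 became 1619 and 1553 per gene, 3148 without _x_at and _s_at probe sets, 8824 at 1.3-fold and 1487 at 2-fold. For HH 2257 became 578 and 540 per gene, 3793 with no floor, 5125 at 1.3-fold and 486 at 2-fold. Between lines 8863 became 5758 with no floor, 3907 and 4075 per gene, and 4356 and 4044 without the HH control or the HH IL-32γ array. On the control arrays 14772 became 6288 and 6464 per gene and 9688 without _x_at and _s_at probe sets. IL-32γ across lines gave 0 calls in every fit run; leaving out an array left no residual degree of freedom there. No paired analysis by replicate number was possible because the labels number no replicates.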
